A study of Mus musculus with 8 samples.

Results

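The genes described here are 39 genes for myelin proteins and other products enriched in oligodendrocytes, of 15035 genes in the table. They were chosen by name from a list drawn up with the fold changes and p-values of this same comparison already known. The list has no numerical threshold. The counts below therefore describe the 39 genes and support nothing about them independently. All 39 were in the table, and all 39 passed the filter on low values, which kept 14870 genes in all.

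The data were bulk RNA-seq of the auditory nerve, the bundle of spiral ganglion neuron fibres and glia that joins the cochlea to the brainstem, in mice at postnatal day 21. One group was 4 wild-type mice (replicates 1 to 4) and the other was 4 mice labelled as Mef2c heterozygotes (replicates 5 to 8). Mef2c encodes a MADS-box transcription factor used by neurons, muscle, bone and immune cells. The RNA of 1 sample came from both cochleas of a mouse. Strain, sex, litter, library batch and the design of the Mef2c allele were not given in the sources used here, and no other treatment was named for either group.

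Myelin along the auditory nerve is made by different glia in its peripheral and central parts. Schwann cells wrap the peripheral stretch, while oligodendrocytes wrap the central stretch beyond a glial transition zone and rely on a partly different set of membrane proteins. Myelin basic protein, Mag, Cnp and several lipid-raft proteins are made by both. In bulk tissue, fewer cells of a type and less RNA per cell cannot be told apart, and the length of central nerve in each dissection was not measured.

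The values are normalized counts, that is reads scaled by the authors for differences between libraries. The size of 1 read in these values put the depth at about 13363674 reads in the shallowest library and 21507072 in the deepest. Mef2c itself, in normalized counts, averaged 462 ± 50.4 over the 4 wild-type libraries and 668 ± 66.8 over the 4 heterozygote-labelled ones (± SD). It was thus higher in the heterozygote-labelled group, with all 4 above all 4 wild-type libraries (exact permutation test, two-sided p = 0.0286, the smallest that 4 against 4 allows; limma-trend adjusted p = 0.186). The heterozygote labels could not be checked by a lower transcript level, so every direction below is that of the libraries labelled heterozygote. The female-specific transcript Xist was at 12 normalized counts in wild-type replicate 1 and at 7.6 in heterozygote-labelled replicate 5, and at 5175 to 8615 in the others. Wild-type replicate 1 also stood apart in its correlation with the other libraries (Pearson r over genes 0.930 to 0.943, against 0.951 to 0.981 among the rest). Markers of spiral ganglion neurons and Schwann cells were abundant in all libraries, as the labelled tissue holds.

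The oligodendrocyte myelin genes were mostly lower in the heterozygote-labelled nerves, by amounts that ranged from a log2 fold change of -1.47 for Mobp to -0.03 for Jam3. Mobp, Mog and Mag, which encode membrane-associated proteins of the myelin sheath, fell to 38.0%, 38.7% and 52.4% of the wild-type mean. Klk6, Prr18 and Anln fell to 39.7%, 37.4% and 54.6%. Mbp, the basic protein that compacts the sheath, averaged 55% of wild type, with limma-trend adjusted p = 0.0830. Apod, Trf and Gsn, also on the list, averaged 110%, 113% and 117% of wild type.

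In all, 35 of the 39 genes had a negative log2 fold change and 4 a positive one; their median was -0.68, beside 0.02 over all genes tested (7099 lower and 7771 higher of 14870). In a limma-trend fit to log2(normalized count + 1) across all tested genes, 6 of the 39 fell and 0 rose at a Benjamini-Hochberg adjusted p under 0.05. The same call was made for 0.074% of all genes in the lower direction and for 0.00672% in the higher. At an unadjusted p under 0.05, 30 of the 39 were lower and 0 higher, where 7.34% and 6.72% of all genes were. The 4 heterozygote-labelled libraries all lay under the 4 wild-type libraries in 25 genes and above them in 0, and 14 genes overlapped. Over all genes, such separation was found for 3.86% in the lower and 3.4% in the higher direction. In the authors' deposited table, 25 of the 39 had a false discovery rate under 0.05 with a lower value in the heterozygote-labelled group and 0 with a higher one, where 0.938% of its genes were lower.

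The count of 6 rested on libraries as well as genes. It was 0 without wild-type replicate 2, without wild-type replicate 4 or without heterozygote-labelled replicate 8, 3 without heterozygote-labelled replicate 7 and 20 without wild-type replicate 3. Without wild-type replicate 1 it was 5, and without both libraries low in Xist it was also 5. The count at an unadjusted p under 0.05 was between 28 and 32 in each of these fits.

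**Figure D1:**
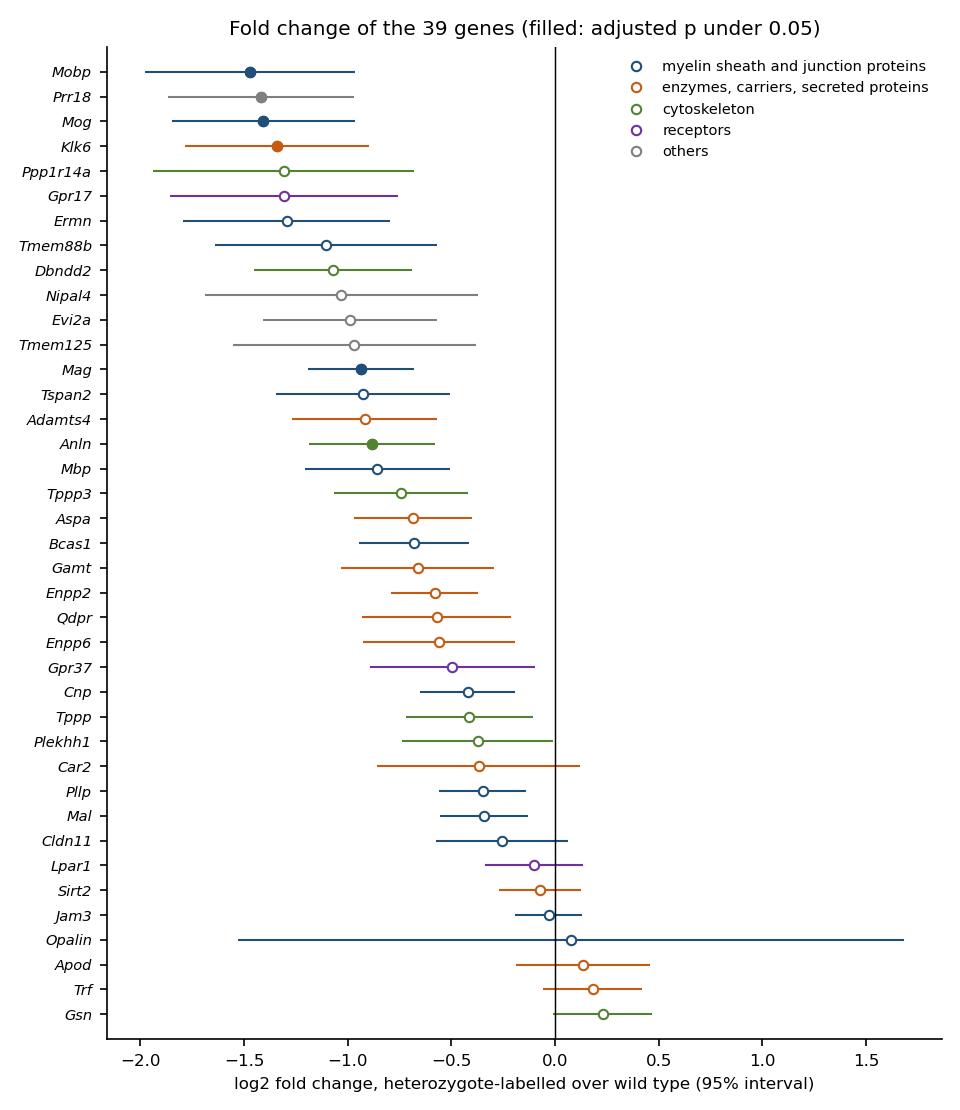
Log2 fold change (horizontal axis, heterozygote-labelled over wild type, with its 95% interval) of each of the 39 genes, ordered by size and coloured by role; filled points had a limma-trend adjusted p under 0.05. The 6 filled points, Mobp, Prr18, Mog, Klk6, Mag and Anln, lie between -1.47 and -0.88, and the interval excludes 0 for 30 of the 39 genes.

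The 4 largest called decreases were those of Mobp, Prr18, Mog and Klk6, and the sequence before each gene's RefSeq start site is shown because these genes were lower together. Each line gives bases 250 to 51 before the most upstream RefSeq start, 5′ to 3′ on the gene's strand, from RefSeq on GRCm38.p6. This stretch holds no annotated exon of its gene in GENCODE M21. It lies at chr9:120149492-120149691 (plus strand) for Mobp, chr17:8340156-8340355 (plus) for Prr18, chr17:37023449-37023648 (minus) for Mog and chr7:43824294-43824493 (plus) for Klk6. The Prr18 stretch lies in an intron of a longer Prr18 transcript. Capitals mark matches, on either strand, to the letters of motifs known for 4 families of transcription factors: ACAAAG for SOX factors, CTGGNAC for the myelin regulatory factor MYRF, CTA and TAG with any 4 bases between them for MEF2 and CAGNTG for E-boxes. The MEF2 letters are looser than the A/T-rich site usually given for MEF2.
Mobp: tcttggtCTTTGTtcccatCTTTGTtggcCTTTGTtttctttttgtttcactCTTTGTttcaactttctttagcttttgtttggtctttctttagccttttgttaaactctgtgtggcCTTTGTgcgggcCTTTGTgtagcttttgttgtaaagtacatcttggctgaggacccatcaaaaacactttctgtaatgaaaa
Prr18: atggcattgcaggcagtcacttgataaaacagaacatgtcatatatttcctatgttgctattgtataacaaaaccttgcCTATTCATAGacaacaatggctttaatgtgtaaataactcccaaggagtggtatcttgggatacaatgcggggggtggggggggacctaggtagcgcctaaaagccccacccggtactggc
Mog: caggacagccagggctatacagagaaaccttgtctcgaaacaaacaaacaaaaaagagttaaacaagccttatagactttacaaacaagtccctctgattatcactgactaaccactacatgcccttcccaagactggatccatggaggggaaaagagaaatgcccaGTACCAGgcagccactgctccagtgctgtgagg
Klk6: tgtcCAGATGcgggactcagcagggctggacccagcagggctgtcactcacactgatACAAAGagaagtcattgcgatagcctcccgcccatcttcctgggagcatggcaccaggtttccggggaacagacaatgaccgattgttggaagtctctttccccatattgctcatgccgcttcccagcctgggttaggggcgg

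In the Mobp stretch, 6 matches to the SOX letters were found, all as the reverse complement, with first bases 243, 231, 221, 198, 132 and 120 before the start. It was the only 1 of 27025 RefSeq stretches of that length with as many (0.00370%). A single match or more was found in 13.6% of all stretches and in 6 of the 28 that matched a listed gene (21.4%). Prr18 had 1 match to the MEF2 letters, 171 to 162 bases before the start. These letters were in 2.59% of all stretches and in 3 of 28 here (10.7%, in Prr18, Enpp6 and Tmem88b). Mog had 1 match to the MYRF letters, 83 to 77 bases before the start, a motif in 13.1% of all stretches and in 10 of 28 here (35.7%). Klk6 had 1 SOX match and 1 E-box, and the E-box was in 38.0% of all stretches and in 15 of 28 here (53.6%). A match is a string of letters, and binding was not measured.

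**Figure D2:**
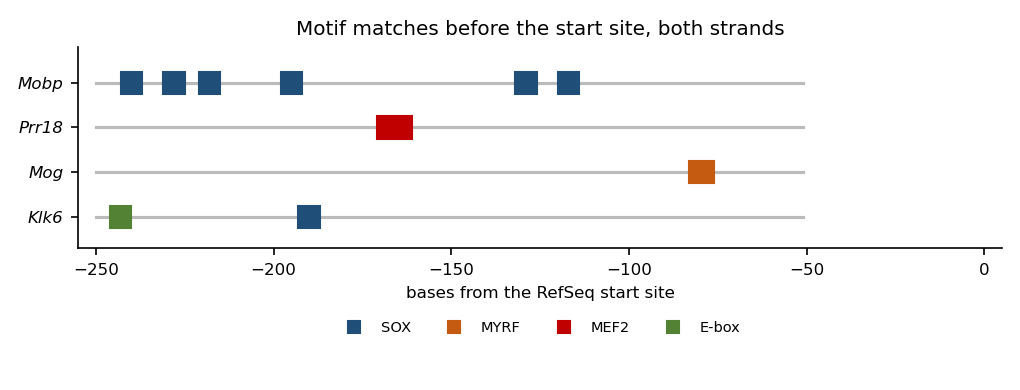
Matches to the 4 motifs (coloured boxes, to scale) in the stretch from 250 to 51 bases before the RefSeq start site (horizontal axis, bases) of Mobp, Prr18, Mog and Klk6. The 6 boxes of Mobp are all SOX matches, while Prr18 and Mog have 1 match each and Klk6 has 2.

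Of the 14 genes for proteins of the myelin sheath and its junctions, 13 were lower, 3 fell at the adjusted threshold and 11 had groups that did not overlap (median log2 fold change -0.77). Mobp, myelin-associated oligodendrocyte basic protein, lies on chromosome 9 (120149707 to 120181484, plus strand, GRCm38). It had 15065, 14154, 11853 and 14898 normalized counts in wild-type replicates 1 to 4, and 2746, 6726, 6400 and 5376 in heterozygote-labelled replicates 5 to 8. The highest heterozygote-labelled library was well under the lowest wild-type library, and replicate 5 was the lowest of all. The log2 fold change was -1.47 (SE 0.23, 95% interval -1.98 to -0.96, limma-trend adjusted p = 0.0495).

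Mog, a protein of the outermost surface of central myelin, lies on chromosome 17 (37010743 to 37023398, minus strand). Its normalized counts were 2058, 1833, 1393 and 1893 in wild type and 443, 785, 923.5 and 624 in the heterozygote-labelled libraries. Wild-type replicate 3 was the lowest of its group, yet above all 4 heterozygote-labelled libraries. Its log2 fold change was -1.41 (SE 0.20, limma-trend adjusted p = 0.0354). Mag, the adhesion protein that faces the axon, lies on chromosome 7 (30899176 to 30914873, minus strand). Mag had 6861, 6710, 5604 and 7303 normalized counts in wild type and 2850, 3618, 3931.5 and 3466 in the heterozygote-labelled libraries. Its groups lay far apart, and its fall of 0.94 on the log2 scale had the smallest error of the 6 called genes (SE 0.12, limma-trend adjusted p = 0.0199).

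Mbp had 128044, 102787, 94407 and 100074 normalized counts in wild type and 50269, 60681, 65104 and 58071 in the heterozygote-labelled libraries. These groups did not overlap either, and wild-type replicate 1 was the highest. The log2 fold change was -0.86 (SE 0.16, 95% interval -1.21 to -0.51), short of the threshold at a limma-trend adjusted p of 0.0830. The authors' deposited table gave Mbp a false discovery rate of 6.35e-09, Mag 7.06e-10, Mog 5.33e-08 and Mobp 1.78e-07.

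Ermn, a cytoskeletal protein of the oligodendrocyte sheath, had 1404, 1643, 1517 and 1632 normalized counts in wild type against 345, 819, 812 and 683. Tmem88b had 871, 1135.5, 983.5 and 887 against 238, 548, 605 and 507. In both, replicate 5 was far under the other heterozygote-labelled libraries, which were close together. Their log2 fold changes were -1.29 (SE 0.23, limma-trend adjusted p = 0.0632) and -1.11 (SE 0.25, limma-trend adjusted p = 0.162). Tspan2, a tetraspanin, and Bcas1, which marks oligodendrocytes starting to myelinate, also had separate groups, at -0.93 and -0.68.

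Cnp, Mal, Pllp and Jam3, which Schwann cells also make, were lower by less than Mbp and Mag, which they make too. Cnp, a phosphodiesterase of non-compact myelin, had 18367, 17614, 18833 and 19609 normalized counts in wild type and 15128, 11851, 14381 and 14378 in the heterozygote-labelled libraries. Its groups did not overlap, at 74.9% of wild type and a log2 fold change of -0.42 (SE 0.11, limma-trend adjusted p = 0.211). Mal and Pllp, proteolipids of myelin rafts, had log2 fold changes of -0.34 and -0.35 (SE 0.10 each), with limma-trend adjusted p of 0.236 and 0.222. Mal counted 8183, 9549, 10339 and 9016 in wild type against 7162, 6777.5, 7502 and 7759, again without overlap.

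Cldn11, the claudin of tight junctions in central myelin, overlapped, with 6244, 6655, 4984 and 5746 normalized counts in wild type and 4112, 6642, 4767 and 4476 in the heterozygote-labelled libraries. Replicate 6 was at the top of the wild-type range (log2 fold change -0.26, 95% interval -0.58 to 0.06). Jam3, a junctional adhesion molecule, was the closest to level, at 2857 ± 41.2 and 2796 ± 56.2 (SD, n = 4 each; log2 fold change -0.03, 95% interval -0.19 to 0.13).

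Opalin, a membrane protein found almost solely in oligodendrocytes, was the 1 member of the sheath group without a negative value. It had 22.1, 14.2, 6.4 and 3.6 normalized counts in wild type and 4.3, 7.0, 27.3 and 11.3 in the heterozygote-labelled libraries. The 95% interval of its log2 fold change, 0.08, ran from -1.53 to 1.68, so a change as large as that of Mobp was not detectable at this depth. In these libraries 3 reads were worth 2.37 to 3.89 normalized counts, and Opalin was at or under 3 reads in 1 library.

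**Figure D3:**
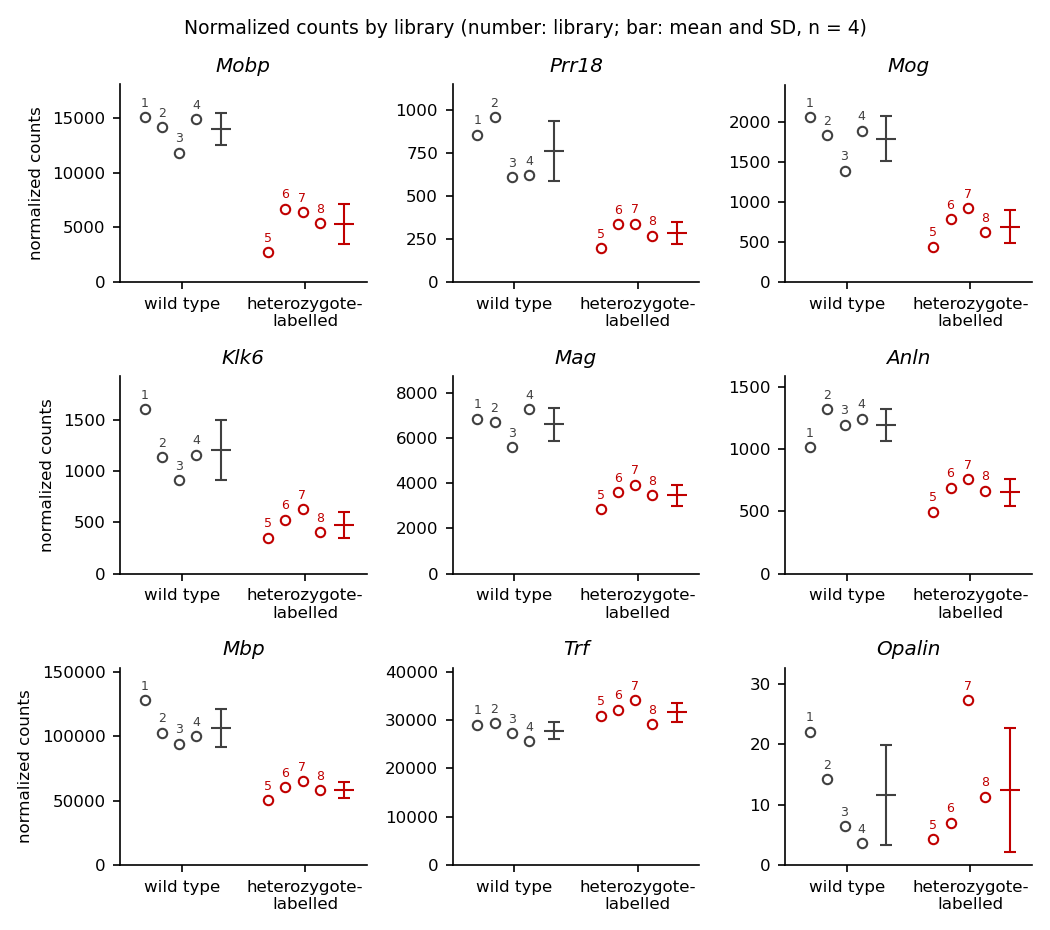
Normalized counts (vertical axes from 0) of 9 genes in each library, numbered 1 to 4 for wild type and 5 to 8 for heterozygote-labelled, with the mean and SD beside each group. Mobp, Prr18, Mog, Klk6, Mag, Anln and Mbp show groups that do not overlap, with library 5 the lowest in each, while Trf and Opalin overlap.

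Among 11 enzymes, carriers and secreted proteins, 9 were lower, 1 fell at the adjusted threshold and 6 had separate groups (median -0.57). Klk6, a kallikrein-type serine protease of mature oligodendrocytes, lies on chromosome 7 (43824499 to 43832030, plus strand). It had 1612, 1139, 911 and 1163 normalized counts in wild type and 349, 529, 630.5 and 405 in the heterozygote-labelled libraries. Wild-type replicate 1 was well above the rest of its group. The log2 fold change was -1.34 (SE 0.20, limma-trend adjusted p = 0.0420).

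Aspa, the aspartoacylase that frees acetate from N-acetylaspartate, had 499.6, 474, 479 and 478 normalized counts in wild type and 358.5, 281, 284 and 283 in the heterozygote-labelled libraries. Here replicate 5, the lowest library for most of the list, was the highest of its group. The log2 fold change of Aspa was -0.69 (SE 0.13, limma-trend adjusted p = 0.0961). Enpp6, a choline phosphodiesterase of newly formed oligodendrocytes, had 535, 561, 488 and 490 against 279, 396, 462 and 298, without overlap (log2 fold change -0.56, SE 0.17, limma-trend adjusted p = 0.259).

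Enpp2, the autotaxin that makes lysophosphatidic acid, had a log2 fold change of -0.58 (SE 0.10, limma-trend adjusted p = 0.0546). Adamts4, a metalloprotease that cleaves proteoglycans, was at -0.92 (limma-trend adjusted p = 0.0632). Gamt, of creatine synthesis, was at -0.66. All 3 had separate groups. The groups overlapped for the pteridine reductase gene Qdpr at -0.57, carbonic anhydrase 2 (Car2) at -0.37 and the tubulin deacetylase gene Sirt2 at -0.07.

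The secreted lipid carrier Apod and the iron carrier transferrin (Trf) were the 2 abundant secreted products that were not lower. Apod had 83404.5, 90476, 82338 and 74271 normalized counts in wild type and 88806, 97055, 93692 and 83253 in the heterozygote-labelled libraries. Trf had 29047, 29363, 27284 and 25687 against 30892, 32164, 34080 and 29194. Both overlapped between groups, Trf by 1 heterozygote-labelled library that lay under the top of the wild-type range. The log2 fold changes were 0.14 for Apod (95% interval -0.19 to 0.46) and 0.18 for Trf (-0.06 to 0.42).

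Of 7 genes for cytoskeletal proteins, 6 were lower, 1 fell at the adjusted threshold and 4 had separate groups (median -0.74). Anln, the actin-binding anillin that helps to form septin filaments in myelin, lies on chromosome 9 (22332012 to 22389188, minus strand). Anln had 1020, 1326, 1199 and 1248 normalized counts in wild type and 500, 693, 758 and 666 in the heterozygote-labelled libraries. Unlike Mbp and Klk6, it was lowest of the wild-type group in replicate 1. Its log2 fold change was -0.88 (SE 0.14, limma-trend adjusted p = 0.0495).

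Ppp1r14a, an inhibitor of myosin phosphatase, averaged 37.8% of wild type, as low a ratio as Mobp, but varied more. Its wild-type libraries ran from 258.5 to 724 normalized counts and its heterozygote-labelled libraries from 144 to 222, so its log2 fold change of -1.31 had an SE of 0.29 (limma-trend adjusted p = 0.160). Dbndd2 was at -1.07 (SE 0.17, limma-trend adjusted p = 0.0514), the nearest to the threshold of the genes that missed it. The tubulin-binding genes Tppp3 and Tppp were at -0.74 and -0.41, and Plekhh1 was at -0.37. Gsn, the actin-severing gelsolin, had 12689, 13689, 10514 and 11293 normalized counts in wild type and 13392.5, 14702, 15247 and 12990 in the heterozygote-labelled libraries. Its groups overlapped, and its log2 fold change of 0.23 (95% interval -0.01 to 0.47) was the highest of the 39.

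All 3 receptor genes had negative values, none of them past the adjusted threshold. Gpr17, a receptor of precursors committed to become oligodendrocytes, had 488, 332, 332 and 368 normalized counts in wild type and 88.0, 180, 201 and 164 in the heterozygote-labelled libraries. Its groups were apart, with replicate 5 the lowest (log2 fold change -1.31, SE 0.25, limma-trend adjusted p = 0.0973). Gpr37, an orphan receptor of maturing oligodendrocytes, overlapped at -0.50. Lpar1, the receptor for the product of Enpp2, overlapped at -0.10 and is also made by Schwann cells.

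The remaining 4 genes have less settled roles in myelin, and all were lower. Prr18, a proline-rich protein, lies on chromosome 17 (8337459 to 8344113, plus strand). It had 856.5, 956, 609 and 621 normalized counts in wild type and 198, 335.5, 337 and 268 in the heterozygote-labelled libraries. The wild-type libraries split into a higher and a lower pair, both above every heterozygote-labelled library (log2 fold change -1.42, SE 0.20, limma-trend adjusted p = 0.0354). Nipal4, a magnesium transporter, had 84.4, 136, 139 and 170 against 67.3, 80.2, 39.6 and 70.3, separated by a narrow gap (log2 fold change -1.03, SE 0.30, limma-trend adjusted p = 0.243). Evi2a was at -0.99 without overlap, and Tmem125 at -0.97 with overlap in wild-type replicate 3.

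Levels of different genes can be compared only per length, here as normalized counts per kilobase of the longest annotated transcript. In wild type Apod was the most abundant of the 39, at 39837 ± 3200 per kilobase, followed by Mbp at 22166 ± 3105, Trf at 10831 ± 663 and Cnp at 6407 ± 288 (SD, n = 4 each). Gsn and Mobp came next at 4541 ± 534 and 4258 ± 450 and did not differ beyond their spread. Mal and Cldn11, at 3337 ± 326 and 3159 ± 385, did not either. In the heterozygote-labelled libraries Mbp and Trf were side by side, at 12202 ± 1298 and 12284 ± 802 per kilobase. Mobp moved from rank 6 to a level of 1616 ± 549 there, under Mal at 2628 ± 153. Opalin was the least abundant of the 39 in wild type, at 4.14 per kilobase.

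Counted as reads, Mbp made up 30.4% to 35.7% of the summed normalized counts of the 39 genes in wild-type libraries and 20.7% to 23.4% in heterozygote-labelled ones. Apod made up 23.3% to 26.9% and 33.6% to 36.6%. The 39 genes together were 1.80% to 2.07% of all normalized counts in wild type and 1.41% to 1.67% in the heterozygote-labelled group.

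**Figure D4:**
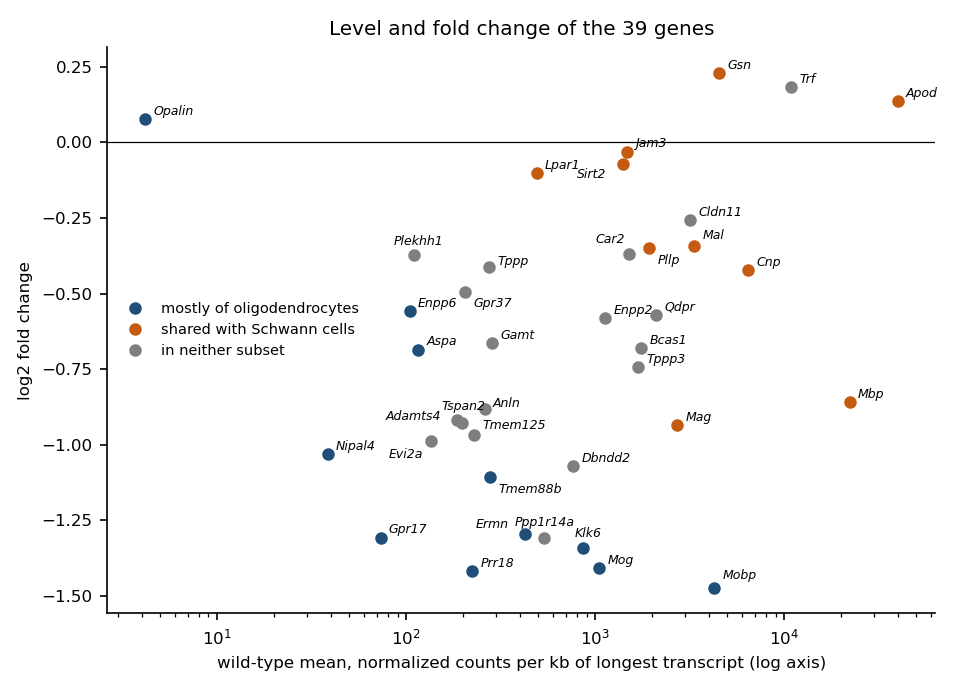
Log2 fold change (vertical axis, heterozygote-labelled over wild type) against the wild-type level (horizontal log axis, normalized counts per kilobase) for the 39 genes, coloured by whether the gene is made mostly by oligodendrocytes, shared with Schwann cells or in neither subset. Low and high levels both hold large decreases, from Gpr17 to Mobp, and the 3 genes above 0 besides Opalin are abundant.

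The list was divided by background knowledge into 11 genes made mostly by oligodendrocytes, 10 that Schwann cells also make and 18 in neither subset. The oligodendrocyte subset (Mog, Mobp, Opalin, Ermn, Aspa, Klk6, Prr18, Gpr17, Enpp6, Tmem88b and Nipal4) had its median log2 fold change at -1.29; 10 of 11 were lower, 4 past the adjusted threshold and 10 with separate groups. The shared subset (Mbp, Mag, Cnp, Mal, Pllp, Jam3, Sirt2, Lpar1, Apod and Gsn) had a median of -0.22, with 8 of 10 lower, 1 past the threshold and 5 with separate groups. The other 18 had a median of -0.67, with 17 lower, 1 past the threshold and 10 separate. These subsets were set with the fold changes known, so the order of their medians is a description. The summed normalized counts of the oligodendrocyte subset were 18711 to 23495 in wild-type libraries and 5116 to 10721.5 in heterozygote-labelled ones.

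Schwann cell markers had no common direction. Of 17 tested, 8 were lower and 9 higher, 0 passed the limma-trend threshold in either direction, 1 was lower and 1 higher at an unadjusted p under 0.05, and the median was 0.06. Pmp22, a membrane protein of compact peripheral myelin, was at -0.05 and Prx, the periaxin that links the Schwann cell membrane to its cytoskeleton, at -0.16 (limma-trend adjusted p = 0.863 and 0.557). The median of this list ran from -0.05 to 0.11 over the alternative settings, so its sign changed with the setting. At a false discovery rate under 0.05 in the authors' deposited table, 1 of the 17 was lower and 0 were higher.

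The heterozygote-labelled libraries were not alike. Replicate 5 was the lowest of all 8 libraries for 22 of the 39 genes and for 8 of the 11 in the oligodendrocyte subset. The median log2 deviation of that subset from the wild-type mean was -1.91 in replicate 5, -0.92 in replicate 6, -0.90 in replicate 7 and -1.18 in replicate 8. In wild-type replicates 1 to 4 it was 0.11, 0.08, -0.18 and -0.02. The shared subset was nearly level among the heterozygote-labelled libraries, at -0.20, -0.31, -0.18 and -0.19. Wild-type replicate 1 was the highest library for 18 of the 39 genes. It and replicate 5 are the libraries low in Xist; without both, Mobp was at -1.14 (limma-trend adjusted p = 0.0090) and Mbp at -0.69 (limma-trend adjusted p = 0.117), while Prr18 and Klk6 no longer passed (both with limma-trend adjusted p = 0.0636).

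**Figure D5:**
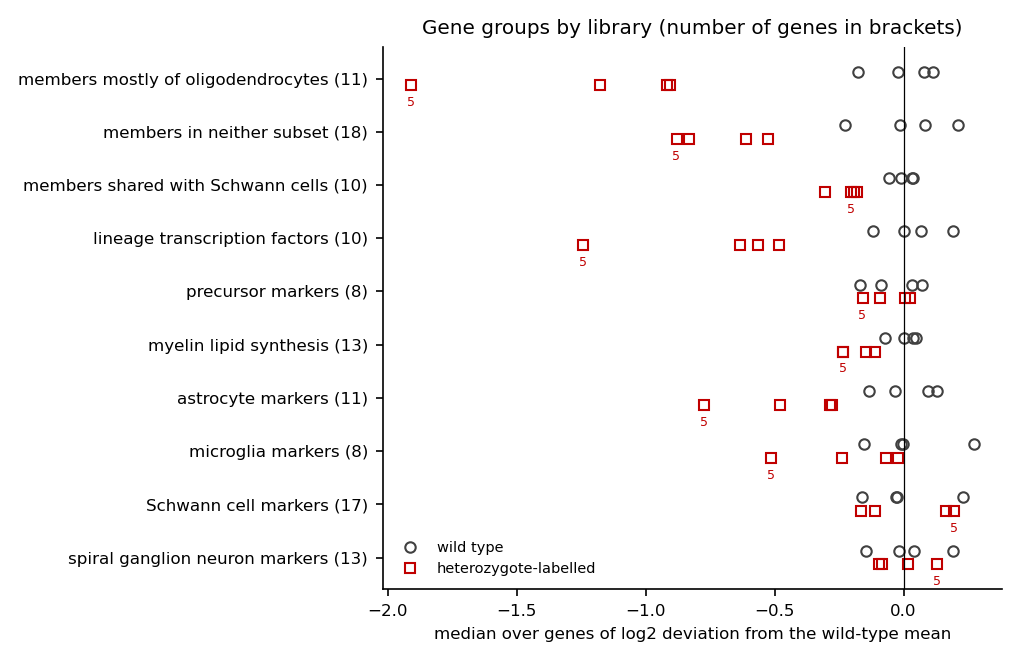
Median over the genes of a list of the log2 deviation from the wild-type mean (horizontal axis) in each wild-type library (circles) and heterozygote-labelled library (squares; 5 marks replicate 5). The oligodendrocyte subset lies at -1.91 to -0.90 in the heterozygote-labelled libraries, astrocyte markers at -0.77 to -0.28 and neuron markers within the wild-type range.

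Genes upstream of myelin in the oligodendrocyte lineage were tabulated as further lists, with 0 genes past the limma-trend threshold in any of them. Of 10 lineage transcription factors, 8 were lower and 2 higher, 6 were lower and 0 higher at an unadjusted p under 0.05, and the median was -0.85. Sox10, which Schwann cells also need, was at 0.17 (limma-trend adjusted p = 0.484) and Sox8 at 0.28. Olig1, which Schwann cells lack, had 1389, 1354, 970 and 1294 normalized counts in wild type and 257, 716, 709 and 511 in the heterozygote-labelled libraries. Its groups were apart, with replicate 5 again the lowest (log2 fold change -1.28, limma-trend adjusted p = 0.154). Nkx6-2, Olig2 and Myrf, named after their values were seen, were at -1.31, -1.40 and -0.64.

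Markers of oligodendrocyte precursors had a median of -0.12, with 5 of 8 lower and 3 higher. At an unadjusted p under 0.05, 2 were lower, Neu4 and Gpr17, the second of them also 1 of the 39, and 1 was higher, Cspg4. Pdgfra, the growth factor receptor of precursors and of fibroblasts, was at -0.06, Lhfpl3 at 0.32 and Ptprz1 at -0.30. The sign of this list's median changed with the settings. Of 13 genes for making myelin lipids, 11 were lower, 6 of them at an unadjusted p under 0.05, with a median of -0.13. Scd2, a desaturase, was at -0.04, Hmgcs1, of cholesterol synthesis, at -0.34 and Fasn, of fatty acid synthesis, at 0.08. Among 23 other oligodendrocyte genes the median was -0.27, with 18 lower and 5 higher, of which 10 and 2 had an unadjusted p under 0.05. Of these, Nfasc, of the node and paranode, was at 0.26, Ugt8a, which makes galactosylceramide, at -0.42 and Kcnj10, a potassium channel, at -0.09. The authors' deposited table had 4 of 10 lineage factors and 2 of 8 precursor markers lower at a false discovery rate under 0.05. So were 2 of 13 myelin lipid genes and 6 of 23 other oligodendrocyte genes, and 0 genes of these lists were higher. Some genes stand in more than 1 list. Over all genes in that table, 0.938% were lower at that rate.

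Astrocytes, like oligodendrocytes, populate the central stretch of the nerve, and their markers were lower too. Of 11 tested, 9 were lower and 2 higher, 6 were lower at an unadjusted p under 0.05, 5 had separate groups and the median was -0.47. The median was -0.32 without heterozygote-labelled replicate 5 and -0.25 without both libraries low in Xist, and it ran from -0.56 to -0.25 over the alternative settings. Their summed normalized counts were 24191 to 34123 in wild type and 13596 to 22306 in the heterozygote-labelled libraries, with none of the markers at 0. Gfap, the astrocyte intermediate filament, was at -0.99 (limma-trend adjusted p = 0.160), Aldoc at -0.42 and Aqp4 at -0.73. In the authors' deposited table, 3 of the 11 astrocyte markers were lower at a false discovery rate under 0.05 and 0 were higher. By library, the median deviation of the astrocyte list was -0.77 in replicate 5, -0.28 in replicates 6 and 7 and -0.48 in replicate 8. Replicates 5 and 8 were the lowest here, as in the oligodendrocyte subset. The part of a different share of central nerve in these samples in the myelin gene values was not tested.

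Markers of other cells had medians near 0 or in the other direction, apart from the erythroid genes. Of 13 neuron markers, 6 were lower and 7 higher, 0 in either direction at an unadjusted p under 0.05, with a median of 0.00 and sums of 212927 to 298185 in wild type and 243964 to 289219 in the heterozygote-labelled group. Neutrophil genes were higher in 4 of 4, with a median of 3.67, the largest of any list here, 0 past the limma-trend adjusted threshold, 3 at an unadjusted p under 0.05 and the same 3 with separate groups. These were S100a8 (4.09), S100a9 (3.62) and Ngp (3.73), named after their values were seen. The list's sums were 106 to 2346 in wild type and 649 to 6030 in the heterozygote-labelled group, and the top of the wild-type range was replicate 1, where the fourth gene, Ltf, was at 2176. Bone-forming genes were higher in 8 of 8 (median 0.64), and 9 of 11 cochlear epithelium genes were higher (median 0.38). In the authors' deposited table, the same 3 neutrophil genes were higher at a false discovery rate under 0.05. So were 2 of 11 cochlear epithelium genes and 1 of 8 bone-forming genes. The share of all genes higher at that rate was not computed, so these counts have no background beside them. Erythroid genes had a median of -0.38. The part of these cells in the myelin gene values was not tested.

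Some of these values could hold reads of a neighbouring gene. In the annotation, 16 of the 39 genes have an exon that overlaps another gene, and for 7 that gene is also in the table. The 7 are Cnp, Ermn, Adamts4, Plekhh1, Gpr17 and Sirt2, whose partner is on the opposite strand, and Evi2a, whose partner is on the same strand. Whether the counting used strand was not given in the sources used here, so the values of these 7 genes are less certain. None of the 6 called genes is among them.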

How the data were processed

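RNA was measured by sequencing poly(A)-selected libraries of 8 auditory nerves, per the labels' protocols. The authors' deposited table gives a normalized signal per gene and library (counts scaled between libraries, by a method not given in the sources used here) and a comparison of the groups as p-values, adjusted p-values, ratios, log2 ratios, means and a signed fold score, which was not used. The submitters' processing notes name STAR, Partek and DESeq2 and the mm10 genome; their roles and versions were not given in the sources used here. Because the deposited values are scaled between libraries and are not whole reads, a count model was not used. Per library, 85.1% to 92.5% of values under 1000 were whole multiples of the estimated size of 1 read (tolerance 0.06 reads).

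From the deposited signal, log2(normalized count + 1) was fitted with limma-trend (limma 3.58.1, R 4.3.3) for genes that reached 10 normalized counts in 4 or more libraries, two-sided, with Benjamini-Hochberg adjustment over 14870 genes. The log2 scale with a pseudocount of 1 understates changes of low genes. The fit was tested on simulated data with 200 altered genes of 14870: 91% of 4-fold and 64% of 2-fold changes were recovered, with 7 false calls. Gene positions and lengths came from GENCODE M21 on GRCm38, with a length for 97.6% of genes. RefSeq upstream sequences matched 28 of the 39 genes.

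The 39 genes, their groupings by role and the marker lists were chosen with earlier results of these data known. Genes given in full are those past the adjusted threshold, the 8 most abundant, the 4 with the highest fold change and the oligodendrocyte subset; from the other lists, the 3 most abundant genes are named. Some of these genes are not reported here. Nothing in the labels says that the 8 mice came from separate litters, so p-values measure the spread between these samples only. Replicate numbers were not shared between groups, so no pairing was made. Alternatives changed the pseudocount, the filter, the scaling, library weights, a length correction, Xist as a covariate and the libraries included.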

Additional observations from a re-analysis of the deposited data

Results flagged for a closer look

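In 80 groups of 4 libraries (39 genes and Mef2c, in wild type and heterozygote-labelled), a single library stood apart by Dixon's rule (gap over range above the 95% critical value for 4 samples) in 4, and chance gives about 1 in 20, or 4. All 4 were heterozygote-labelled replicate 5. Aspa was high there, at 358.5 normalized counts against 280.6 to 283.7 in replicates 6 to 8 (gap over range 0.960). Evi2a was low, at 112.8 against 167 to 173.4 (0.894). Gamt was low, at 157.5 against 180.4 to 183.8 (0.871). Plekhh1 was low, at 431.5 against 571.1 to 592.7 (0.866).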

How the results depend on the processing

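Of 18 alternatives, none reversed a called gene. The 6 listed genes called lower became 3 with upper-quartile scaling, 3 with quantile normalization (7 genes over the table, against 12), 17 with library quality weights (96) and 13 with a length correction (30). Leaving out 1 library gave 0 to 20 listed genes and 0 to 221 genes over the table. Fits that leave out a library have fewer samples; the cause of the other shifts was not tested. Mag and Mog passed in 15 of 18 alternatives (limma-trend adjusted p 0.0042 to 0.147 and 0.0096 to 0.229), Prr18 in 12 (0.0109 to 0.207), Klk6 in 10 (0.0112 to 0.229), Mobp in 8 (0.0090 to 0.229), Anln in 7 (0.0121 to 0.229) and Mbp in 3 (0.0248 to 0.345). The median of the 39 genes ran from -0.77 to -0.62, that of the oligodendrocyte subset from -1.43 to -1.05 and that of the shared subset from -0.26 to -0.19. Uncalled values changed sign for Opalin in 3 of 12 alternatives that tested it and for Lpar1 and Jam3 in 1 each. Depth limits Opalin, the 1 gene of the 39 at or under 3 reads in a library. No paired analysis was possible because the groups share no replicate number.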

Other observations

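Microglia, the resident macrophages of central nervous tissue, were drawn by library beside the other lists but not described above. In heterozygote-labelled replicates 5 to 8, the median log2 deviation of their markers from the wild-type mean was -0.51, -0.07, -0.02 and -0.24. In wild-type replicates 1 to 4 it was 0.27, -0.01, -0.15 and -0.003. Of 8 marker genes, 7 were lower and 1 higher, with a median log2 fold change of -0.14, 0 past the limma-trend adjusted threshold, and 3 lower and 1 higher at an unadjusted p under 0.05. Their summed normalized counts were 4646.5 to 6273 in wild type and 4169 to 5299 in the heterozygote-labelled libraries. Csf1r, the receptor for colony-stimulating factor, was at -0.10 and Tmem119 at 0.61, and neither passed the test.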
